A study of Mus musculus with 21 samples.

Results

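The miR-183, miR-96 and miR-182 cluster is a group of miRNAs processed from 3 neighbouring hairpins. Its members were chosen by name, as every miRNA called miR-183, miR-96 or miR-182 with any arm or numbered isoform, and the cluster itself was selected on its decrease relative to WT, a result of these data known earlier. The choice gave 7 of 1934 miRNA names, with 7 of 1909 listed in the virgin cohort and 6 of 1841 in the breeding trial cohort, where miR-183-5p.2 was not listed. Comparisons with WT are therefore descriptions of the members and carry no test.

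Small RNAs of female mouse pituitary were sequenced in 21 libraries, each from a different C57BL/6J mouse killed in proestrus. WT mice were set beside *Zeb1 200H* and *Zeb1 200M* mice, which carry a knock-in *Zeb1* allele with mutated miR-200a/b sites on 1 (H) or both (M) copies of the gene. The question was how far the loss of this repression alters pituitary miRNAs. Virgin females, 8 to 12 weeks of age, gave 3 WT, 4 *Zeb1 200H* and 4 *Zeb1 200M* libraries. Females 28 to 36 weeks of age that had completed a breeding trial gave 4 WT, 3 *Zeb1 200H* and 3 *Zeb1 200M* libraries. The paper reports that most females with both copies mutated bore no litter in this trial. The litters borne by the mouse behind a given library are not stated. In this cohort, differences of *Zeb1 200M* from the other genotypes therefore cannot be told apart from litter history. The knock-in lines came from a pair of embryonic stem cell clones, both of which were used for each cohort, and the clone behind a given library is not stated. Age, breeding history, library preparation, instrument and miRNA dictionary differed together between the cohorts and cannot be told apart.

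The cluster is conserved across animals with bilateral symmetry and is best known from sensory organs, where hair cells and photoreceptors need it. ZEB1 is a repressor that binds E-boxes in promoters of epithelial genes, and the miR-200 family represses *Zeb1* in turn. The anterior lobe of the pituitary develops from oral ectoderm, and its endocrine cells keep epithelial features, whereas the posterior lobe is neural tissue.

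Total counts ran from 3816917 to 10806313 in the virgin libraries and from 60037 to 191650 in the breeding trial libraries. Levels are given in CPM, counts scaled to a common total of counted miRNA reads per library. A count of 0 allowed up to 0.786 CPM in the shallowest virgin library and up to 49.97 CPM in the shallowest breeding trial library, taking 3 counts as the limit. Such limits cover counting error only, because reads were not collapsed to molecules. Virgin WT replicate 1 stood apart. It had the lowest total of its cohort, a TMM scaling factor of 0.616 against 0.943 to 1.12 in the other virgin libraries, and 36.9% of its reads in its 3 most abundant miRNAs, against 24.5% to 28.1% in the rest of that cohort. Fold changes and calls relative to virgin WT were therefore also computed without it.

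The hairpins lie on the minus strand of chromosome 6 of GRCm38.p6. *Mir183* spans 30169668 to 30169737, *Mir96* spans 30169446 to 30169551, and *Mir182* spans 30165918 to 30165992. *Mir183* and *Mir96* are 116 bp apart and *Mir96* and *Mir182* are 3453 bp apart. RefSeq places all 3 inside the long noncoding RNA gene *Mirc35hg*, which runs from 30158640 to 30174125. GENCODE lists no gene but the 3 hairpins between the outer ends of the cluster.

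**Figure D1:**
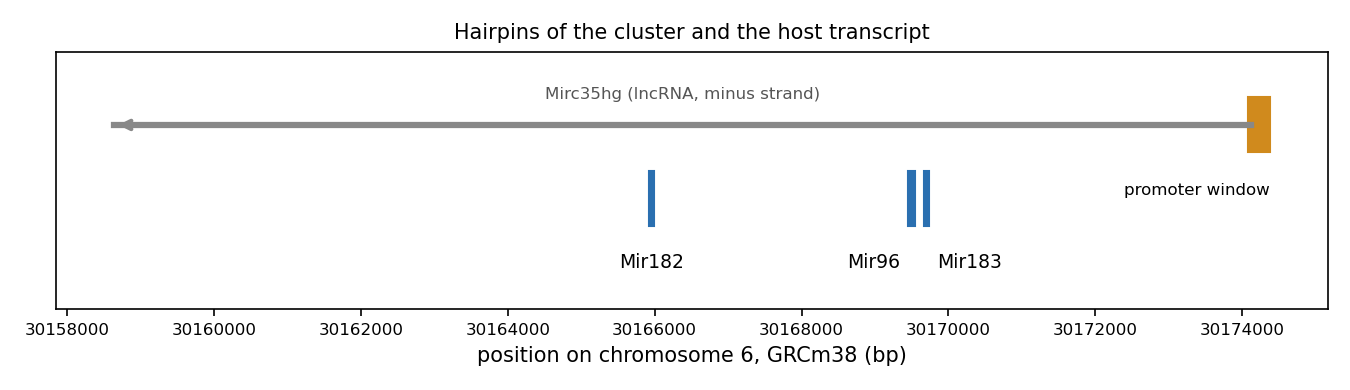
Map of the cluster on chromosome 6 of GRCm38, with position in bp on the horizontal axis. Blue boxes are the 3 hairpins, the grey line is *Mirc35hg* with its arrow in the direction of transcription, and the orange box is the 300 bp promoter window at its start. *Mir183* and *Mir96* sit 116 bp apart, and *Mir182* sits 3453 bp farther along.

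Mature sequences of 6 of the 7 members were found in RefSeq (GRCm38.p6), and miR-183-5p.2 is named only. The 5p strands are shown because they carry nearly all reads, and the 3p strands because they come from the same hairpins. Capitals mark the seed, bases 2 to 8, with which a miRNA pairs to its targets.
miR-183-5p: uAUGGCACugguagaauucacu
miR-96-5p: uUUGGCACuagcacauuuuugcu
miR-182-5p: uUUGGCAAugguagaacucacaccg
miR-183-3p: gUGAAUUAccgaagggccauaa
miR-96-3p: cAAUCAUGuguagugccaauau
miR-182-3p: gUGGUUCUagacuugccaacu

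No seed was shared between the 5p strands printed here, although they were close. Counting positions from the 5′ end, miR-183-5p and miR-96-5p shared 6 of 7 seed bases and differed by A2U. The seeds of miR-96-5p and miR-182-5p also shared 6 of 7 bases and differed by C8A. The seeds of miR-183-5p and miR-182-5p shared 5 of 7 bases, yet over the whole strand this pair was the most alike, with 18 of 22 bases the same. miR-1271-5p has the seed of miR-96-5p and was not listed in the tables used here, and no other mature sequence in RefSeq shared a seed with a 5p member.

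miR-96-5p was the member with the most reads. In each of the 21 libraries its level was above that of miR-182-5p, which was above that of miR-183-5p. In virgin WT pituitary it measured 955, 1200.5 and 1233 CPM in replicates 1, 2 and 4. In *Zeb1 200H* it measured 486, 449, 398 and 373 CPM in replicates 1 to 4. In *Zeb1 200M* it measured 362, 341, 321 and 418 CPM. Every WT library lay above every mutant library, and the *Zeb1 200H* and *Zeb1 200M* libraries overlapped. The log2 fold change relative to WT was -1.75 ± 0.16 (SE) in *Zeb1 200H* and -2.04 ± 0.16 in *Zeb1 200M*.

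miR-182-5p comes from the hairpin farthest from the start of *Mirc35hg*. In virgin WT it measured 466, 705 and 728 CPM. In *Zeb1 200H* it measured 327, 303, 251 and 250.2 CPM. In *Zeb1 200M* it measured 223, 226, 214 and 247 CPM. WT replicate 1 was the lowest WT library but still above all mutants, and the lowest *Zeb1 200H* library was barely above the highest *Zeb1 200M* library. Relative to WT the log2 fold change was -1.48 ± 0.15 in *Zeb1 200H* and -1.85 ± 0.13 in *Zeb1 200M*.

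miR-183-5p, from the first hairpin of the transcript, had the fewest reads of the 3 main strands. Its virgin WT levels were 178, 226 and 243 CPM. In *Zeb1 200H* it measured 83.8, 88.9, 73.3 and 69.3 CPM. In *Zeb1 200M* it measured 52.3, 61.2, 51.7 and 54.4 CPM. The 3 genotypes did not overlap, and WT was highest and *Zeb1 200M* lowest. Its log2 fold change relative to WT was -1.79 ± 0.15 in *Zeb1 200H* and -2.36 ± 0.15 in *Zeb1 200M*.

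miR-183-5p.2, an isoform of miR-183-5p that the virgin dictionary lists apart, followed the same order. WT libraries gave 69.4, 93.6 and 93.8 CPM. *Zeb1 200H* libraries gave 32.3, 39.4, 31.3 and 30.3 CPM, and *Zeb1 200M* libraries gave 22.3, 23.1, 16.7 and 21.3 CPM. The 3 genotypes did not overlap here either. Relative to WT the log2 fold change was -1.70 ± 0.15 in *Zeb1 200H* and -2.42 ± 0.17 in *Zeb1 200M*. The isoform and miR-183-5p come from the same hairpin and are not independent measurements.

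**Figure D2:**
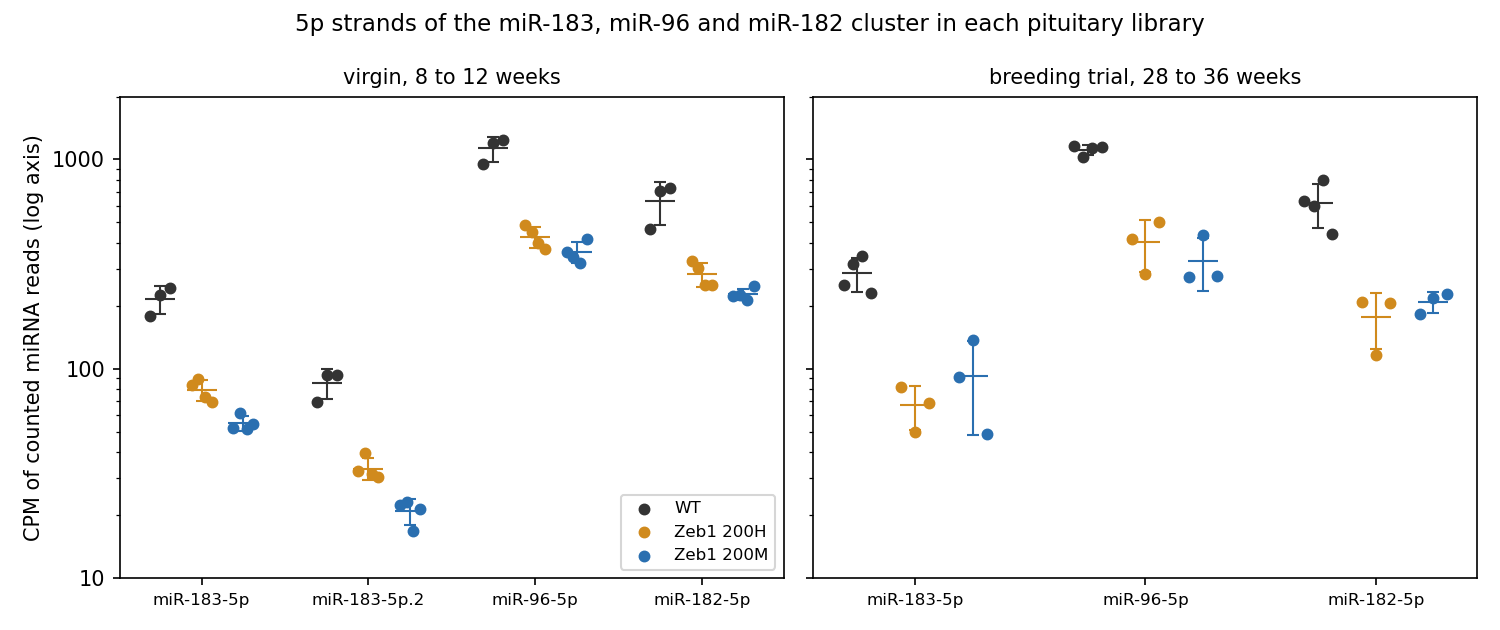
Level of each 5p strand in every library, in CPM on a log axis, for virgin (left) and breeding trial (right) females. Each point is a library, horizontal bars are means and error bars are SD over 3 or 4 libraries. All WT points lie above all mutant points of the same strand, with miR-96-5p highest and miR-183-5p lowest of the strands listed in both cohorts.

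The decrease relative to WT led to the choice of these members, so their calls are counted without being read as a result. In virgin *Zeb1 200M*, 4 of 4 members that passed the filter on low counts were called lower (edgeR, Benjamini-Hochberg adjusted p under 0.05), beside 3.83% of the 678 miRNAs tested. In virgin *Zeb1 200H*, 4 of 4 were called lower, beside 3.42% of 672. The filter kept 4 of the 7 members and left out the 3p strands. Ranges lay wholly below WT for 4 of 4 members in both genotypes, beside a share of all tested miRNAs of 4.57% for *Zeb1 200M* and 4.76% for *Zeb1 200H*. With WT replicate 1 left out these shares were 11.9% and 11.4%, again with 4 of 4 members. Both comparisons share the same WT libraries. Less RNA of the cluster per cell and fewer cells that express it cannot be told apart in bulk tissue.

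The WT level depended on how replicate 1 was scaled. With TMM scaling, which sets aside differences in library composition, replicate 1 went from the lowest to the highest WT library for miR-183-5p, at 289 against 239 and 248 scaled CPM. For miR-96-5p it reached 1552 scaled CPM against 1273 and 1258. For miR-182-5p it reached 756 scaled CPM against 747 and 743. All 3 strands moved from the lower end of WT to its upper end. With WT replicates 2 and 4 alone, miR-183-5p differed from WT by a log2 value of -2.25 ± 0.09 in *Zeb1 200M*, against -1.70 ± 0.10 in *Zeb1 200H*. For miR-183-5p.2 the values were -2.32 ± 0.13 and -1.62 ± 0.11. Those of miR-96-5p came to -1.91 ± 0.11 and -1.64 ± 0.10. miR-182-5p had -1.82 ± 0.09 and -1.47 ± 0.11. These values too are descriptions, since the decrease chose the members.

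Counts were lower by far in the breeding trial cohort. miR-96-5p measured 1158, 1027, 1129.7 and 1148 CPM in WT replicates 1 to 4, from 179, 117, 95 and 220 counts. It measured 418, 283 and 503 CPM in *Zeb1 200H* and 274, 435 and 277 CPM in *Zeb1 200M*. All mutant libraries were below all WT libraries, and the mutant genotypes overlapped. Relative to WT the log2 fold change was -1.59 ± 0.18 in *Zeb1 200H* and -1.98 ± 0.18 in *Zeb1 200M*.

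miR-182-5p measured 634, 597, 797 and 438 CPM in breeding trial WT. It measured 209, 117 and 206 CPM in *Zeb1 200H* and 182.5, 217 and 228 CPM in *Zeb1 200M*. The mutants again overlapped each other and not WT. Relative to WT the log2 fold change was -1.85 ± 0.25 in *Zeb1 200H* and -1.73 ± 0.22 in *Zeb1 200M*.

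miR-183-5p measured 252, 316, 345 and 229.6 CPM in breeding trial WT. It measured 81.8, 49.97 and 68.5 CPM in *Zeb1 200H*, from 9, 3 and 9 counts, and 91.3, 137 and 48.9 CPM in *Zeb1 200M*, from 8, 17 and 6 counts. The highest *Zeb1 200M* library was replicate 2, and the mutants overlapped each other and not WT. Relative to WT the log2 fold change was -2.15 ± 0.31 in *Zeb1 200H* and -1.80 ± 0.30 in *Zeb1 200M*. Without *Zeb1 200M* replicate 2 the latter was -2.27, and without *Zeb1 200M* replicate 3 it was -1.43, the ends of the range when 1 library was left out.

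Of the 6 members listed in the breeding trial cohort, 3 passed the filter. In *Zeb1 200M*, 3 of 3 were called lower than WT (edgeR, Benjamini-Hochberg adjusted p under 0.05), beside 15.6% of 276 miRNAs, and in *Zeb1 200H* 3 of 3, beside 7.12% of 267. Ranges lay below WT for the same 3 members, beside a share of tested miRNAs of 9.06% for *Zeb1 200M* and 5.99% for *Zeb1 200H*. With the replicate number as a block, 3 of 3 were called in *Zeb1 200H* as well, beside 8.99% of 267 called lower and 8.61% called higher, the latter in place of 4.87%. These counts too follow from the choice of members and nothing is read from them.

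*Zeb1 200M* and *Zeb1 200H* were compared directly, a contrast that holds no WT library and so does not rest on WT replicate 1. Its libraries also entered the comparisons with WT that led to the choice of the members. The p-values of members in this contrast are therefore not independent of that choice. In virgin pituitary miR-183-5p was lower in *Zeb1 200M*, with a mean of 54.9 ± 4.35 CPM against 78.8 ± 9.05 CPM (SD, n = 4 each). The log2 difference was -0.58 ± 0.09 (SE), lower in 4 of 4 libraries than in any *Zeb1 200H* library (edgeR, Benjamini-Hochberg adjusted p = 0.00649). miR-183-5p.2 was lower as well, at 20.9 ± 2.87 against 33.3 ± 4.12 CPM, with a log2 difference of -0.73 ± 0.13 in the same direction in 4 of 4 libraries (edgeR, Benjamini-Hochberg adjusted p = 0.00764). With all 3 genotypes in 1 fit miR-183-5p was no longer called (edgeR, Benjamini-Hochberg adjusted p = 0.0551, log2 difference -0.57), and likewise with counts thinned to breeding trial depth (adjusted p = 0.650, log2 difference -0.46), and over all alternatives its adjusted p ran from 1.49e-05 to 0.650.

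For miR-182-5p and miR-96-5p the test did not pass, although the level was below the *Zeb1 200H* mean in 4 of 4 *Zeb1 200M* libraries for each. miR-182-5p measured 227 ± 14.3 CPM in *Zeb1 200M* and 283 ± 38.3 CPM in *Zeb1 200H*, a log2 difference of -0.37 ± 0.10 with an interval from -0.56 to -0.18 (edgeR, Benjamini-Hochberg adjusted p = 0.0905). In 2 of 15 alternatives miR-182-5p was called lower, DESeq2 among them (Benjamini-Hochberg adjusted p = 0.0499). Over all alternatives with edgeR or DESeq2 its adjusted p ran from 0.0374 to 0.515. miR-96-5p measured 361 ± 41.9 and 427 ± 50.5 CPM, a log2 difference of -0.30 ± 0.11 with an interval from -0.50 to -0.09 (edgeR, Benjamini-Hochberg adjusted p = 0.356). In this contrast 2 of 4 members were called lower, beside 1.48% of 675 miRNAs, and 3 of 4 had ranges below *Zeb1 200H*, beside 1.93%. The 2 called members are isoforms of the same 5p strand. Other lists moved in this contrast too. Of 7 names of brain miRNAs 2 were called higher, both of them isoforms of miR-124-3p, and of 11 names of epithelial miRNAs 5 were called lower, all of the miR-200 superfamily. Over all 675 miRNAs 5 were called higher and 10 lower. Their part in the lower level of miR-183-5p was not tested.

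Of the breeding trial strands, miR-96-5p and miR-182-5p passed the filter and neither was called, beside 0.73% of 274 miRNAs called lower. The log2 difference of miR-96-5p was -0.37 ± 0.24, lower than the *Zeb1 200H* mean in 2 of 3 libraries (edgeR, Benjamini-Hochberg adjusted p = 0.494). That of miR-182-5p was 0.13 ± 0.29, higher in 3 of 3 (edgeR, Benjamini-Hochberg adjusted p = 0.892). When 1 library was left out, the difference ran from -0.64 to -0.17 for miR-96-5p and from 0.005 to 0.25 for miR-182-5p. No range of levels lay below *Zeb1 200H*, beside 6.57% of tested miRNAs. miR-183-5p was under the filter with 21 counts over 3 *Zeb1 200H* and 31 over 3 *Zeb1 200M* libraries, and was not tested there. Its mean was 92.3 ± 44.0 CPM in *Zeb1 200M* and 66.8 ± 16.0 CPM in *Zeb1 200H* (SD, n = 3 each), higher than the *Zeb1 200H* mean in 2 of 3 libraries.

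Whether genotype differences changed with cohort was tested in a fit of all 21 libraries. Its terms for *Zeb1 200M* cannot tell cohort from litter history, which differed with genotype in the breeding trial. This fit includes the libraries that led to the choice of the members, so their p-values are not independent of it either. For *Zeb1 200M* against *Zeb1 200H*, the log2 difference of miR-183-5p was higher by 0.94 ± 0.38 in the breeding trial cohort than in the virgin cohort. In the breeding trial mutants alone miR-183-5p was under the filter, with 3 to 17 counts per library. It passed in this fit with the WT and virgin libraries included, so its term is a description and carries no test. This term was 0.45 without breeding trial *Zeb1 200M* replicate 2 and 1.27 without *Zeb1 200M* replicate 3, the ends of the range when 1 library was left out. For miR-182-5p it was higher by 0.51 ± 0.29 (edgeR, Benjamini-Hochberg adjusted p = 0.974), with a range of 0.32 to 0.63 when 1 library was left out. For miR-96-5p the term was -0.07 ± 0.27 (edgeR, Benjamini-Hochberg adjusted p = 1.00). The sign of this term turned without *Zeb1 200H* replicate 4 (0.09), *Zeb1 200M* replicate 1 (0.02) or *Zeb1 200M* replicate 3 (0.03) of the breeding trial cohort. In the comparisons with WT the cohort terms of the 3 strands lay between -0.40 and 0.55, given as a description, and several changed sign when 1 library was left out. Of 566 miRNAs, edgeR called 0, or 0.0%, for each of the 3 genotype contrasts, DESeq2 called 0, and unadjusted p from edgeR was under 0.05 for 44, 49 and 16 miRNAs in *Zeb1 200M* against WT, *Zeb1 200H* against WT and *Zeb1 200M* against *Zeb1 200H*.

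Ratios between strands of the same library need no scaling between libraries. In virgin WT the ratio of miR-183-5p to miR-182-5p was 0.383, 0.320 and 0.334. It was 0.256, 0.293, 0.292 and 0.277 in *Zeb1 200H* and 0.235, 0.271, 0.242 and 0.2199 in *Zeb1 200M*. WT libraries were the highest, and the mutants overlapped. The mean log2 ratio of *Zeb1 200M* minus that of *Zeb1 200H* was -0.21 ± 0.08 (SE), lower than the *Zeb1 200H* mean in 4 of 4 libraries (exact permutation test, two-sided, p = 0.0571, Benjamini-Hochberg adjusted p = 0.200 over 7 ratio tests).

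The ratio of miR-183-5p to miR-96-5p averaged 0.190 ± 0.00573 in WT, 0.185 ± 0.0103 in *Zeb1 200H* and 0.154 ± 0.0214 in *Zeb1 200M* (SD). The log2 difference between the mutants was -0.28 ± 0.11, lower in 4 of 4 libraries (exact permutation p = 0.0571, Benjamini-Hochberg adjusted p = 0.200). For miR-96-5p to miR-182-5p the WT libraries gave 2.05, 1.70 and 1.69, with replicate 1 the highest, and the means were 1.51 ± 0.0490 in *Zeb1 200H* and 1.58 ± 0.0918 in *Zeb1 200M* (SD). The log2 difference was 0.06 ± 0.05, higher in 2 of 4 libraries (exact permutation p = 0.171, Benjamini-Hochberg adjusted p = 0.280). It ran from 0.03 to 0.09 when 1 library was left out. miR-183-5p.2 amounted to 0.397, 0.423 and 0.380 of miR-183-5p in WT, *Zeb1 200H* and *Zeb1 200M*, and the log2 difference was -0.16 ± 0.10, lower in 3 of 4 libraries (exact permutation p = 0.114, Benjamini-Hochberg adjusted p = 0.267). This difference ran from -0.22 to -0.09 when 1 library was left out. An exact test of 4 against 4 libraries cannot go below p = 0.0286, and adjusted over the 7 ratios, 3 of them with 3 against 3 libraries, these tests could not pass 0.05 even at that limit.

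An exact test of 3 against 3 libraries, as in the breeding trial cohort, cannot go below p = 0.1. There miR-183-5p to miR-182-5p ran from 0.398 to 0.529 in WT, from 0.333 to 0.429 in *Zeb1 200H* and from 0.214 to 0.630 in *Zeb1 200M*, so all genotypes overlapped. The log2 difference of miR-183-5p to miR-182-5p was 0.09 ± 0.48, higher in 2 of 3 libraries (exact permutation p = 0.9, Benjamini-Hochberg adjusted p = 0.9). It changed sign without *Zeb1 200H* replicate 4 (-0.01), *Zeb1 200M* replicate 1 (-0.06) or *Zeb1 200M* replicate 2 (-0.22). For miR-96-5p to miR-182-5p it was -0.57 ± 0.23, lower in 3 of 3 libraries (exact permutation p = 0.2, Benjamini-Hochberg adjusted p = 0.28). For miR-183-5p to miR-96-5p it was 0.66 ± 0.33, higher in 3 of 3 libraries (exact permutation p = 0.3, Benjamini-Hochberg adjusted p = 0.35).

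**Figure D3:**
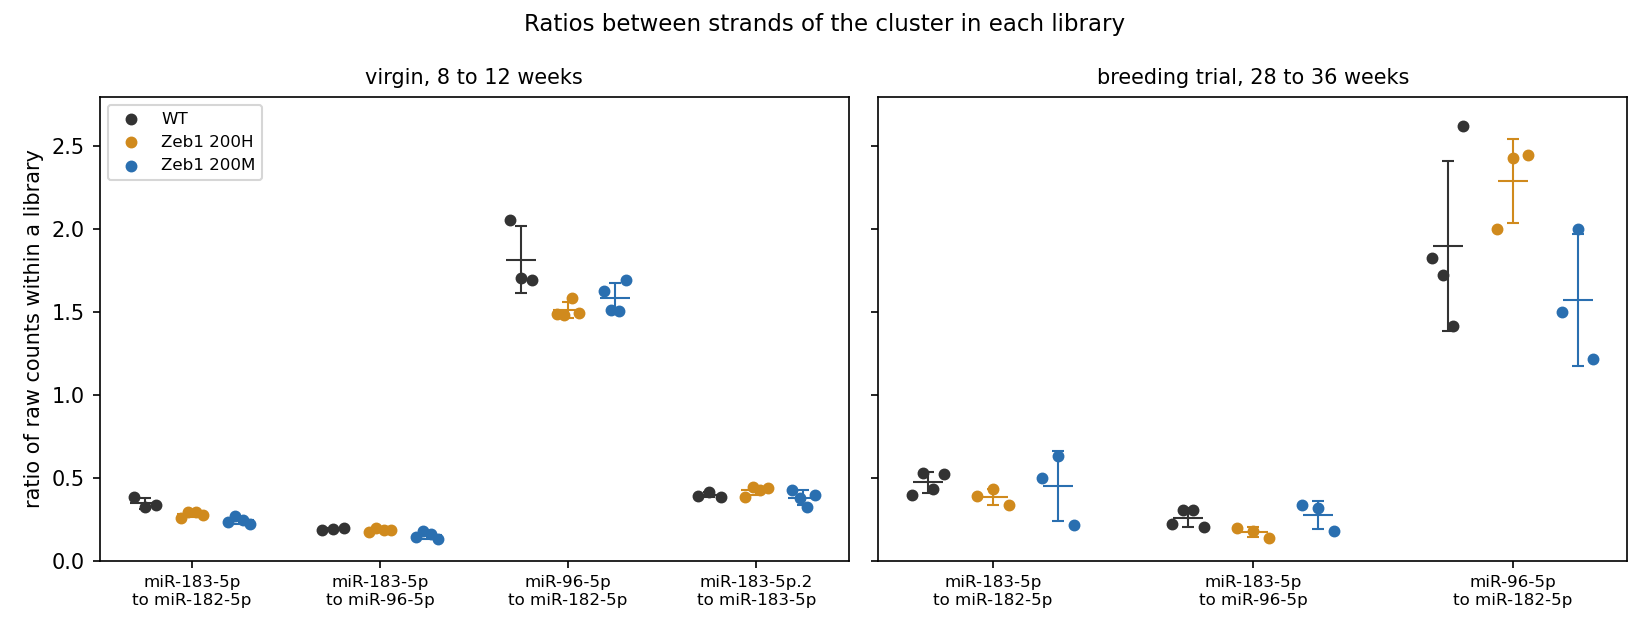
Ratio of raw counts between strands of the cluster in each library, for virgin (left) and breeding trial (right) females, on a linear axis. Points are libraries, horizontal bars are means and error bars are SD over 3 or 4 libraries. The virgin mutants overlap in all 4 ratios, and breeding trial points spread more widely.

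The 3p strands, normally discarded after processing of the hairpin, were near the limit of detection. miR-183-3p had 0 to 12 counts in the virgin libraries, summing to 21 in WT, 15 in *Zeb1 200H* and 6 in *Zeb1 200M*. miR-96-3p summed to 13, 4 and 2 counts and miR-182-3p to 10, 4 and 3 counts in the same order. WT replicate 1, the shallowest, had 0 counts for miR-183-3p and miR-96-3p. In virgin WT the 3p strand made up 0.282% of miR-183 reads with miR-183-5p.2 included (95% exact interval 0.174% to 0.430%) and 0.394% of miR-183-3p and miR-183-5p alone (0.244% to 0.601%). It made up 0.0468% of miR-96 reads (0.0249% to 0.0800%) and 0.0626% of miR-182 reads (0.03001% to 0.115%). These intervals overlapped those of both mutants for each hairpin. They pool the reads of all libraries of a genotype and cover counting error only, not the spread between mice. Breeding trial libraries held little of the 3p strands: miR-183-3p and miR-182-3p had 1 count each, both in WT, and miR-96-3p had 0.

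The composition of the cluster within a library was also described. miR-96-5p made up 59.7%, 56.3% and 55.9% of the 3 main strands in virgin WT, with replicate 1 the highest, and averaged 54.1 ± 0.70% in *Zeb1 200H* and 56.0 ± 1.79% in *Zeb1 200M* (SD). The sum of the 3 strands was 1599, 2131 and 2205 CPM in virgin WT, with replicate 1 the lowest, and averaged 788 ± 96.4 in *Zeb1 200H* and 643 ± 55.8 in *Zeb1 200M*. Among breeding trial libraries the share of miR-96-5p was 55.6 ± 5.79% in WT, 62.2 ± 2.94% in *Zeb1 200H* and 51.7 ± 2.95% in *Zeb1 200M*, so that the mutants stood in the opposite order to the virgin cohort. Breeding trial sums were 2018 ± 193, 645 ± 173 and 630.1 ± 138 CPM.

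The miRNAs outside the cluster with the pattern most like the mean of its 3 main strands were found by Pearson correlation of log2 TMM-scaled CPM over the 11 virgin libraries, among 497 candidates. They were miR-200a-3p (r = 0.990), miR-200b-3p (r = 0.988), miR-200b-5p (r = 0.986), miR-429-3p (r = 0.980) and miR-141-3p (r = 0.973), all of the miR-200 superfamily. Over the 10 breeding trial libraries r was 0.951, 0.947, 0.577, 0.970 and 0.932 in the same order, and without virgin WT replicate 1 it lay between 0.964 and 0.988 in the virgin cohort. WT and mutant libraries form separate groups on this measure, and all miRNAs share library and depth, so these values are a description only.

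The miR-200 miRNAs target *Zeb1* and are repressed by its product. Virgin log2 fold changes of these 5 in *Zeb1 200M* lay between -2.89 (miR-200b-3p) and -3.73 (miR-141-3p), against -1.85 to -2.42 for the cluster, with no test between them. Leaving out WT replicate 1, they lay between -2.90 (miR-200b-3p) and -3.54 (miR-429-3p), against -1.82 to -2.32. Of 11 listed names of epithelial miRNAs, 7 were called lower and 0 higher in virgin *Zeb1 200M*, with a median log2 fold change of -2.89 beside 0.00 over all miRNAs, and 7 were called lower in *Zeb1 200H*, with a median of -2.38 beside 0.01. Over all miRNAs 3.83% and 3.42% were called lower. The called names were the miR-200 members with miR-205-5p and miR-31-5p. Leaving out WT replicate 1 gave counts of 8 and 9, beside 74 of all 703 and 77 of all 699 miRNAs, with medians of -2.90 and -2.09. Among breeding trial mutants 6 of 10 were called lower in each mutant, beside 15.6% and 7.12% of all miRNAs, with medians of -2.92 and -2.34.

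Hairpins within 5 Mb of the cluster on chromosome 6 numbered 5. *Mir335* was the nearest, 571562 bp away. miR-335-3p was called lower than WT in both mutants and both cohorts, with virgin log2 fold changes of -0.84 ± 0.14 (*Zeb1 200M*) and -0.83 ± 0.14 (*Zeb1 200H*), and breeding trial values of -0.56 ± 0.12 and -0.72 ± 0.15. Without virgin WT replicate 1 the virgin values were -0.73 ± 0.10 and -0.75 ± 0.10. miR-335-5p was called lower in both breeding trial mutants, at -0.71 ± 0.10 and -0.48 ± 0.11. In the virgin cohort it had -1.13 ± 0.29 and -1.14 ± 0.29 and was not called, and without WT replicate 1 it had -0.60 ± 0.08 and -0.63 ± 0.07 and was called in both. These values were nearer to 0 than those of the cluster.

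*Mir29a* lies 892923 bp away, and miR-29a-3p had a virgin log2 fold change of -0.01 ± 0.14 in each mutant. When WT replicate 1 was left out the values were 0.13 ± 0.07 and 0.11 ± 0.06, and it was called in no comparison. From the same locus miR-29b-3p was called higher in breeding trial *Zeb1 200M*, at 0.33 ± 0.11, while in the virgin mutants it had 0.54 ± 0.16 and 0.57 ± 0.15 and was not called. Without WT replicate 1 these values were smaller, at 0.44 ± 0.09 and 0.45 ± 0.07, and were called. miR-129-5p, 1143227 bp away, had virgin values of -0.40 ± 0.13 and -0.27 ± 0.13 and was called in neither mutant. It was called lower in breeding trial *Zeb1 200M*, at -0.38 ± 0.13, and in virgin *Zeb1 200M* without WT replicate 1, at -0.36 ± 0.10. miR-29b-3p and miR-129-5p can come from more than 1 hairpin, and their reads cannot be assigned to this chromosome alone. Strands of *Mir592*, miR-29a-5p and miR-29b-1-5p were called in no comparison that tested them.

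The promoter window of *Mirc35hg*, from 250 bases before to 50 bases after its start (GRCm38, minus strand, chr6:30174076-30174375), is shown because the 3 hairpins lie inside this gene. Capitals mark the E-box CACCTG, searched on both strands.
Mirc35hg: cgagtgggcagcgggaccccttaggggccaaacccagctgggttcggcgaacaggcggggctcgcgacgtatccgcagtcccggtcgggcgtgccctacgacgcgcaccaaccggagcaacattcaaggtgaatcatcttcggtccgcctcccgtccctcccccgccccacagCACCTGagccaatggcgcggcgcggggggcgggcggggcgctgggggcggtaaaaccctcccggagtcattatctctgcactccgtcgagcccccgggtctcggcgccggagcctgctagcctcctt
The window holds 1 match, and 20.2% of 32851 promoter windows of the same length hold at least 1. A second motif, CACCTA, has 0 matches here and at least 1 in 10.1% of windows. It is not a form of CAGGTR (R for A or G), the consensus that the authors give for ZEB1. CACCTG is the reverse complement of the form CAGGTG, and the form CAGGTA was not searched. A match describes letters in this window and says nothing of binding.

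Markers of other tissues moved with genotype in part. Brain miRNAs, a list of 6 led by miR-124-3p in every library, summed to 1386, 2603 and 2794 CPM in virgin WT. The sums were 5527, 5734, 6084 and 6057 CPM in *Zeb1 200H* and 8928, 7685, 8986 and 6440.1 CPM in *Zeb1 200M*. The 3 genotypes did not overlap, and no brain marker was at 0. The other 5 markers, without miR-124-3p, summed to 828 to 1364 CPM in WT, 1661 to 1888 CPM in *Zeb1 200H* and 1673 to 1848 CPM in *Zeb1 200M*, so that the mutants overlapped. Of 7 listed names, 2 were called higher in each mutant (edgeR), both of them isoforms of miR-124-3p, a miRNA of neurons, beside 2.65% of all miRNAs called higher in *Zeb1 200M* and 1.64% in *Zeb1 200H*. miR-219a-5p had log2 values below 0, at -0.76 ± 0.29 and -0.53 ± 0.28, and was not called, and without WT replicate 1 the values were -0.28 ± 0.13 and -0.07 ± 0.10. When WT replicate 1 was left out, 5 of 7 were called higher in each mutant, with medians of 0.53 and 0.48 in place of 0.36 and 0.36, beside 0.04 and 0.01 over all miRNAs, of which 13.4% and 10.6% were then called higher.

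Breeding trial brain sums were 3300.0, 2572, 2985 and 3527 CPM in WT. They were 7291, 5746 and 7896.5 CPM in *Zeb1 200H* and 11213, 11079.8 and 11449 CPM in *Zeb1 200M*. The order of the genotypes was that of the virgin cohort, without overlap, whereas the sums of the 5 markers other than miR-124-3p overlapped between the mutants, at 2182 to 3244 CPM and 3171 to 3342 CPM. Of 5 names tested, 3 were called higher in *Zeb1 200M*, beside 20.3% of all 276 miRNAs. For *Zeb1 200H* it was 1 name, miR-124-3p, beside 4.87% of 267, and with the replicate block 2 names, miR-124-3p and miR-9-5p, beside 8.61%. The part of brain RNA in the lower level of the cluster was not tested.

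The endocrine markers miR-7a-5p, miR-7b-5p and miR-375-3p, which mark the labelled tissue, were abundant in every library, and miR-7a-5p or miR-375-3p was the most abundant of them. Their sum was 368951, 269425 and 273145 CPM in virgin WT, 264186, 253180.0, 277444 and 264282 CPM in *Zeb1 200H*, and 231804, 256743, 235527 and 279905 CPM in *Zeb1 200M*. WT replicate 1 was the highest, and the other libraries overlapped between genotypes. In virgin pituitary 0 of 3 were called in either mutant with edgeR, which had unadjusted p under 0.05 for 150 and 131 miRNAs in all and 87 and 66 calls with DESeq2. The list median was -0.79 in *Zeb1 200M*, against -0.64 in *Zeb1 200H*. With WT replicate 1 left out these were -0.20 and -0.07, and 1 of 3, miR-375-3p, was called lower in each mutant, beside 74 of all 703 and 77 of all 699 miRNAs. The breeding trial sum was 308200.0, 288001, 314366 and 290890.0 CPM in WT, 289256, 270783 and 263402 CPM in *Zeb1 200H*, and 253157, 260271 and 246486 CPM in *Zeb1 200M*. All *Zeb1 200M* sums were below all others. There 2 of 3 were called lower in *Zeb1 200M*, against 1 of 3 in *Zeb1 200H*, beside 15.6% and 7.12% of all miRNAs. The replicate block gave 2 of 3 in *Zeb1 200H* too, adding miR-7a-5p, beside 8.99% of all miRNAs. The breeding trial medians were -0.45 and -0.16 beside 0.00 over all miRNAs.

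Vessel and mesenchyme markers, led by miR-126a-3p with none at 0, summed to 7444, 7048 and 6454 CPM in virgin WT, 9206, 8914, 7117 and 8708 CPM in *Zeb1 200H*, and 10254, 9932, 7374 and 9609.9 CPM in *Zeb1 200M*. Replicate 3 of each mutant lay below WT replicate 1, the highest WT library, and every mutant library lay above the other WT libraries. The list median was -0.06 in *Zeb1 200M* and turned to 0.30 when WT replicate 1 was left out, and in *Zeb1 200H* it turned from -0.15 to 0.19. Of 4 listed names, 1, miR-145a-5p, was called higher in *Zeb1 200M*, beside 2.65% of all miRNAs. Once WT replicate 1 was left out it was called in both mutants, beside 13.4% and 10.6%. Breeding trial libraries gave 7719, 8066, 8193 and 7957 CPM in WT, 10482, 10077 and 10942 CPM in *Zeb1 200H*, and 12331, 11716 and 10944 CPM in *Zeb1 200M*. WT was lowest without overlap, and 3 of 3 were called higher in *Zeb1 200M*, beside 20.3% of all miRNAs. For *Zeb1 200H* edgeR called 0 of 3, beside 4.87% of all miRNAs called higher, with 73 of all miRNAs at unadjusted p under 0.05 and 25 calls with DESeq2. The replicate block also left 0 of 3 called with edgeR, where 79 of all miRNAs had unadjusted p under 0.05.

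Blood markers, led by miR-451a with none of the listed names at 0, summed to 5651, 7995 and 9934 CPM in virgin WT, 8674, 19261, 11505 and 10371 CPM in *Zeb1 200H*, and 10526, 9742, 9884 and 11579.9 CPM in *Zeb1 200M*. *Zeb1 200H* replicate 2 was the highest, the genotypes overlapped and 0 of 5 listed names were called. Without WT replicate 1, 1 of 5, miR-223-3p, was called higher in *Zeb1 200H*, beside 10.6% of all miRNAs. In the breeding trial cohort the sum was 6406, 8926, 6053 and 6528 CPM in WT, 7463, 9311 and 8186 CPM in *Zeb1 200H*, and 8236, 8849 and 12271 CPM in *Zeb1 200M*. There 3 of 4 were called higher in *Zeb1 200M*, beside 20.3% of all miRNAs, and miR-451a was not among them. edgeR called 0 of 4 in *Zeb1 200H*, where 73 of all miRNAs had unadjusted p under 0.05 and DESeq2 made 25 calls. With the replicate block 1 of 4, miR-144-3p, was called higher there, beside 8.61% of all miRNAs.

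Muscle markers were low, and miR-1a-3p led them in every virgin library. They summed to 9.17, 14.1 and 6.42 CPM in virgin WT, 27.7, 47.2, 14.6 and 23.5 CPM in *Zeb1 200H*, and 38.8, 53.1, 13.995 and 73.9 CPM in *Zeb1 200M*. WT lay below all mutants except *Zeb1 200M* replicate 3, and 0 were called. Without WT replicate 1, 3 of 3 were called higher in *Zeb1 200M*, beside 13.4% of all miRNAs, and of 2 tested in *Zeb1 200H* 1 was, beside 10.6%. In the breeding trial cohort no muscle marker passed the filter, and both listed names were at 0 in 3 of 10 libraries. The retinal pigment epithelium and choroid plexus list, led by miR-204-5p, had no call, and miR-211-5p was at 0 in all breeding trial libraries. The part of these lists in the lower level of the cluster was not tested.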

How the data were processed

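The authors trimmed adapters with cutadapt, matched the start of each read to a miRNA dictionary (TargetScanMouse in the virgin cohort, miRBase in the breeding trial cohort) and deposited raw counts per miRNA and library. The 42 columns of counts divided by size factors and the 36 columns of the authors' own DESeq2 comparisons (fold changes and p-values) were not used. Counts were compared with edgeR 4.0.16 in R 4.3.3 (quasi-likelihood F test, TMM scaling, filterByExpr with a count minimum of 10 and a total of 15), with only the libraries of each pair in a fit and Benjamini-Hochberg adjustment over all miRNAs tested. SE is the size of the log2 fold change over the square root of F, and intervals are 95%. Ratios of counts were compared by two-sided exact permutation tests. The scripts were tested on simulated data.

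Alternatives were DESeq2 1.42.0, RLE factors, TMM factors without the miR-200 superfamily and the cluster, no filter, the 3 genotypes in a common fit, the replicate number as a block, thinned counts and leaving out each library, and for ratios a pseudocount of 0.5. Members and lists were chosen with earlier results of these data known. Named miRNAs were the members, the epithelial list, miRNAs of hairpins within 5 Mb, seed sharers, the 5 most alike (mean count of at least 50, prior count 0.5) and tissue markers. A marker name with a numbered suffix, or without its letter, counted as the same marker. miR-486a-5p in both cohorts, and miR-133a-3p in the breeding trial cohort, were not listed by name. For *Zeb1 200H* against WT in the breeding trial cohort, libraries with the same number deviated together from their group means (r = 0.197, 0.288 and 0.329), a pairing that comes from the data and not from the labels. Values for this comparison come from the fit without the block unless the block is named, and in the block fit WT replicate 2 has no partner.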

Additional observations from a re-analysis of the deposited data

Results flagged for a closer look

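In breeding trial WT, 1 library of 4 stood apart for miR-183-3p (replicate 1) and 1 for miR-182-3p (replicate 4), each with a gap to the nearest library equal to the whole range (a value of 1 for each). Each value rests on 1 count against 0 in the other 3 libraries. The ratio of miR-96-5p to miR-182-5p in virgin *Zeb1 200H* also had 1 library apart, replicate 3 at 1.59 against 1.48 to 1.49 in the others, a gap of 0.913 of the range. Chance sets apart about 1 in 20 groups of continuous values by this measure, and 31 groups were tested. A group with counts in a single library reaches a value of 1 by construction, so this rate does not cover miR-183-3p and miR-182-3p.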

How the results depend on the processing

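The members called lower than WT were 4 of 4 in the virgin and 3 of 3 in the breeding trial comparisons under every alternative run, except with virgin counts thinned to breeding trial depth, where miR-183-5p.2 did not pass the filter and 3 of 3 were called. The choice of members fixes these counts. The number of all miRNAs called moved more. For virgin *Zeb1 200M* against WT it was 44, and 87 with DESeq2, 90 with 3 genotypes in 1 fit, 27 with thinned counts and 25 to 168 when 1 library was left out: 168 without WT replicate 1, and 27, 25, 27 and 29 without *Zeb1 200M* replicates 1 to 4. For virgin *Zeb1 200H* against WT it was 34, and 66 with DESeq2, 67 in 1 fit, 20 with thinned counts and 21 to 151 when 1 library was left out: 151 without WT replicate 1, and 21, 21, 22 and 22 without *Zeb1 200H* replicates 1 to 4. For virgin *Zeb1 200M* against *Zeb1 200H* it was 15, and 5 in 1 fit and 9 with thinned counts, with 1 and 0 members among them. In the breeding trial cohort the same comparison had 3 calls, and 3 to 5 when 1 library was left out, with 5 without *Zeb1 200M* replicate 2. Its 2 lower and 1 higher became 2 and 2 with RLE factors and with TMM factors without the miR-200 superfamily and the cluster. Genotype by cohort calls for *Zeb1 200M* against WT were 0 with edgeR (44 miRNAs at unadjusted p under 0.05, 0 with DESeq2), 7 without the filter and 0 to 1 when 1 library was left out, with 1 without breeding trial WT replicate 1. For *Zeb1 200H* against WT they were 0 with edgeR (49 at unadjusted p under 0.05, 0 with DESeq2) and 5 without the filter. Thinning and leaving out a library remove counts or samples by construction, and otherwise the cause was not tested.

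With the replicate number as a block, the calls fell from 44 to 20 in virgin *Zeb1 200M* against WT and from 34 to 18 in virgin *Zeb1 200H* against WT, and went from 3 to 5 in breeding trial *Zeb1 200M* against *Zeb1 200H*. In these comparisons the samples share only a number. For breeding trial *Zeb1 200H* against WT, where same-numbered libraries deviated together, the block gave 47 calls in place of 32, with 3 of 3 members in both. The block changed no other call of a member. In virgin *Zeb1 200M* against *Zeb1 200H*, where correlations of same-numbered libraries were 0.253, 0.193, 0.353 and -0.055, it gave log2 differences of -0.57 for miR-183-5p and -0.73 for miR-183-5p.2, both called.

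Signs turned only when 1 library was left out, and only for differences that were not called. The genotype by cohort term for *Zeb1 200M* against WT ran from -0.15 to 0.20 for miR-182-5p, from -0.027 to 0.79 for miR-183-5p (below 0 without breeding trial *Zeb1 200M* replicate 2) and from -0.32 to 0.18 for miR-96-5p. For miR-96-5p it ran from -0.13 to 0.33 for *Zeb1 200H* against WT (below 0 without breeding trial *Zeb1 200H* replicate 4) and from -0.37 to 0.090 for *Zeb1 200M* against *Zeb1 200H*. The breeding trial log2 difference in the ratio of miR-183-5p to miR-182-5p ran from -0.22 to 0.55. The cause was not tested. The median total was 118373.5 counts in the breeding trial cohort, where a count of 0 allowed up to 49.97 CPM in the shallowest library and 3 members passed the filter in the comparisons with WT and 2 in that of the mutants.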
